A study of Mus musculus with 12 samples.

Results

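The RNA levels of the RNA polymerase I, II and III subunits were measured across a cell line study of the ribosomal protein RPL12. The members are the protein-coding genes of the GENCODE M21 mouse annotation whose symbol starts with Polr1, Polr2 or Polr3, which gives 28 of the 51826 genes in the deposited tables, with 5, 13 and 10 under these 3 stems. By the complex that each protein joins, 3 are specific to polymerase I (Pol I), 2 are shared by Pol I and III, 5 are shared by all 3 enzymes, 8 belong to Pol II and 10 to Pol III. The study compared RPL12 WT cells with cells whose RPL12 carries alanine (S38A) or aspartate (S38D) at one serine, each in 2 states. The groups, of 2 libraries each, were S38D mitotic, S38A mitotic, WT mitotic, S38D asynchronous, S38A asynchronous and WT asynchronous.

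All 12 libraries came from 19DN, which was derived from 19PP, a line of mouse B cell lymphoma. That line grew from bone marrow of the genotype Cγ1-Cre; Myc/P110*flSTOP placed in a Rag2-/- γC-/- mouse, so every group shares the Myc and P110* transgenes, and 19DN lost its reporter genes through Flp. Mitotic cells had spent 8 h in nocodazole, a microtubule poison, at 100 ng/mL and 10 min in fresh medium, so the drug and the cell cycle state cannot be told apart. Asynchronous cells are labelled without the drug, and cycloheximide at 100 µg/mL was present at harvest. The labels do not say how many clones each RPL12 line holds, so the RPL12 change and the line that carries it cannot be told apart. A read from the 3′ end of an mRNA does not cover the changed codon, so the counts do not check the genotype. Since nothing says that the 2 libraries of a group came from separate cultures, the p-values cover the spread among these libraries alone, and that spread may be technical.

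Pol I makes the ribosomal RNA precursor, Pol II makes messenger RNAs, and Pol III makes transfer RNAs, the 5S ribosomal RNA and other short RNAs. Each enzyme has a pair of large catalytic subunits, which hold the active site, and smaller subunits around them, some of which all 3 enzymes use. Transcription by the 3 enzymes is known to be largely shut down in mitosis and to resume as cells leave it, and Myc is known to drive genes of ribosome synthesis in B cell lymphomas. The values here are levels of subunit mRNAs and say nothing direct about the activity of an enzyme.

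Promoters are shown for the 4 subunits with the smallest adjusted p in mitotic against asynchronous cells, one line each, from RefSeq on GRCm38.p6, 250 bases before to 50 after the gene start, 5′ to 3′. They are Polr1b (chr2:129100746-129101045, plus strand), Polr1a (chr6:71908803-71909102, plus strand), Polr2f (chr15:79141075-79141374, plus strand) and Polr3e (chr7:120917528-120917827, plus strand), and capitals mark the motifs found.
Polr1b: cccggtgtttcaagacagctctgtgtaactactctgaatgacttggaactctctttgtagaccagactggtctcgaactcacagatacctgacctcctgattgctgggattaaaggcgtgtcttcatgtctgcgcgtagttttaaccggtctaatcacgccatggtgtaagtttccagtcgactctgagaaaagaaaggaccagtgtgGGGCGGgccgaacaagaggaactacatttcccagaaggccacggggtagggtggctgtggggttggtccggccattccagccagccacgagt
Polr1a: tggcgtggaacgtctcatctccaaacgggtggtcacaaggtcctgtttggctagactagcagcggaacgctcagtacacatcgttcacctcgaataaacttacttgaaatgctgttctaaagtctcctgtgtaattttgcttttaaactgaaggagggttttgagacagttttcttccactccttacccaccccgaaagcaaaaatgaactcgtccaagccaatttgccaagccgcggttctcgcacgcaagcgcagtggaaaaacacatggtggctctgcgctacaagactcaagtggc
Polr2f: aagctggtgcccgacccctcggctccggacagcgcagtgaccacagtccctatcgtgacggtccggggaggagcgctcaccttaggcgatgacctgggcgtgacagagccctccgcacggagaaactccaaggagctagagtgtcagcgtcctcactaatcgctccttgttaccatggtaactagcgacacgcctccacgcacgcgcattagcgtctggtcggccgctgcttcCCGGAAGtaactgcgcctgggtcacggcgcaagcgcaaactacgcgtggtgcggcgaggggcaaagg
Polr3e: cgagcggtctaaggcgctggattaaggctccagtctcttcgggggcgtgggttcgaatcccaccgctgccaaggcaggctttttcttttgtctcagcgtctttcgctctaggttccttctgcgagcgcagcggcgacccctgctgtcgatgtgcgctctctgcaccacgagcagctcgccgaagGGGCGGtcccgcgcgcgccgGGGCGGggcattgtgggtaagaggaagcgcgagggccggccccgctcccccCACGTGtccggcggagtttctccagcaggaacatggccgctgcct

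Of the 28 members, 22 had a promoter in the RefSeq table with chromosome 18, which holds Polr2d, left out, and 5 motifs were searched on both strands. The 32851 promoters of all genes lack that chromosome too. A member counted if any of its promoters, 24 over the members, held the motif. The shares of all are per promoter, whether or not the gene was expressed, so the units differ. The ETS motif CCGGAAG was in 7 of these 22 members, against 8.86% of 32851 promoters of the same length. It lies at position -17 from the gene start in Polr2f, and the other 6 members with it are Polr1c, Polr1e, Polr2c, Polr2j, Polr3b and Polr3g. The E-box CACGTG, the letters that Myc binds with its partner Max, was in 4 members (Polr2h, Polr3c, Polr3e and Polr3gl) against 7.15% of all promoters. The GC box GGGCGG was in 14 members against 35.7%, the TATA box TATAAA in 2 members (Polr2a and Polr2c) against 13.6%, and the NRF1 core GCATGCGC in 2 against 2.71%. Polr1b holds 1 GC box, Polr3e holds 2 GC boxes and an E-box, and the Polr1a window holds none of these letters. The window of Polr3e also begins inside a leucine transfer RNA gene, n-TLaag4 (chr7:120917517-120917598), a template of the enzyme whose subunit Polr3e encodes. This neighbour was noticed after the sequence was read, and 10 of the 32851 promoters, or 0.0304%, overlap a RefSeq transfer RNA gene.

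Levels are given as CPM, the reads of a gene over a library size adjusted by trimmed mean of M-values (TMM) factors. One read stands for one captured mRNA end, so CPM is not divided by length. Reads assigned to genes ranged from 3432875 to 6587997 per library, with a median of 5548100. All 8 B cell markers averaged at least 10 CPM, and their summed level was 1310 to 1987 CPM in the mitotic libraries and 2264 to 3129 CPM in the asynchronous ones, with 7 of 8 called lower in mitotic cells, and 5 of 8 were called higher in S38A than in WT asynchronous cells. Their part in the results below was not tested. Summed markers of T cells reached at most 1.10 CPM (Cd3e, Cd3g, Cd4 and Cd8a at 0), of myeloid cells 1.13 to 5.07 CPM in the mitotic libraries and 2.24 to 5.99 CPM in the asynchronous ones (Itgam, S100a8 and S100a9 at 0), and of stromal, epithelial and erythroid cells 3.02 to 4.79 CPM in mitotic and 2.27 to 6.90 CPM in asynchronous ones. The share of genes whose replicates differed by more than counting error was 47.4% in S38D asynchronous and 30.5% in WT mitotic cells, and 14.0% to 21.6% in the other 4 groups. Along the main axis of that variation, measured from the other lines in the same state, replicate 1 of these groups, the divergent libraries below, lay at 39.6 and 28.4, and replicate 2 at -8.99 and -1.74. The WT asynchronous pair lay at the opposite end, at -25.6 and -24.7, and the other 6 libraries between -12.3 and 14.2. That pair is what WT mitotic cells and both asynchronous mutant lines are set against below, and the part of its place on the axis in those differences was not tested.

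Of the 28 members, 27 passed the count filter, which left 10477 genes. Polr2k, a small subunit of all 3 enzymes, did not pass, with 1 to 7 reads per library and 52 in all, and its 3′ end is identical to stretches of 3 processed pseudogenes, so its level is uncertain. Mean levels over the 12 libraries ran from 714 CPM for Polr2c, the Pol II assembly subunit, through 658 CPM for Polr2f and 482 CPM for Polr1d, to 7.40 CPM for Polr3a and 4.24 CPM for Polr2l. In bulk RNA, fewer cells with an mRNA and less mRNA per cell cannot be told apart. Reads of Polr2j and Lrwd1, Polr2i and Tbcb, and Polr2c and Dok4, genes on opposite strands whose exons overlap, cannot be told apart unless counting used the strand, which is not given in the sources used here.

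Mitotic cells held more mRNA of the 3 Pol I subunits among the members and of most shared subunits, while Pol III subunits split. Pol I subunits under other symbols are not in these counts. Of these, Cd3eap was higher, and Znrd1 and Twistnb were not called (below). Over the mean of the 3 lines, 14 of 27 members (51.85%) were higher in mitotic cells and 2 (7.41%) lower at an adjusted p under 0.05, against 20.5% higher and 21.6% lower of all genes and 42.1% called in all (edgeR quasi-likelihood test, Benjamini-Hochberg adjustment). The median log2 fold change was 0.79 over the 3 Pol I subunits, 0.57 over the 4 tested subunits of all 3 enzymes, 0.27 over the 8 Pol II subunits, 0.20 over the pair shared by Pol I and III, and -0.07 over the 10 Pol III subunits, against -0.02 over all genes. The Pol III median was 0.083 without S38D asynchronous replicate 2. All 3 Pol I subunits, 3 of 4 subunits of all 3 enzymes, 1 of the pair, 4 of 8 Pol II and 3 of 10 Pol III subunits were higher, and 1 Pol II and 1 Pol III subunit lower. Scaling to the spike-in RNA shifted the median of all genes to -0.20 and left 5 members higher (Polr1a, Polr1b, Polr2f, Polr3d and Polr3e) and 3 lower. Under it 41.8% of all genes were called, near the 42.1% with TMM scaling, while fewer members were called. That scaling gave medians of 0.082 over the Pol II subunits, 0.027 over the pair shared by Pol I and III and -0.26 over the Pol III subunits.

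**Figure D1:**
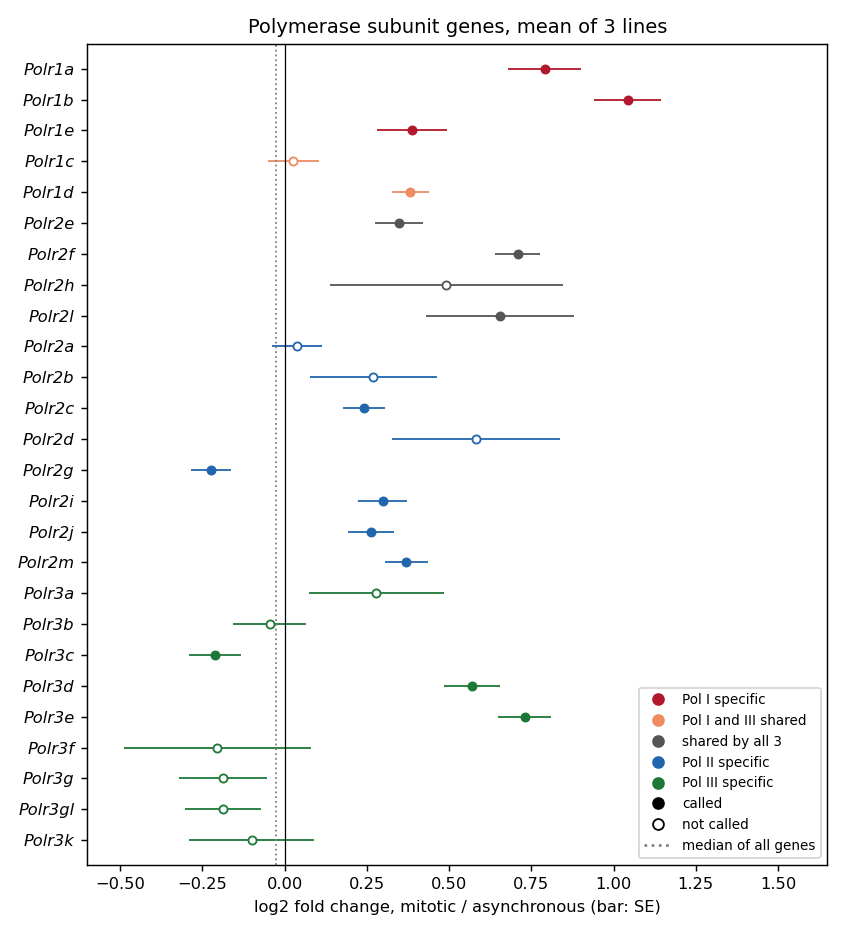
Log2 fold change of mitotic over asynchronous cells (x axis) for the subunit genes named here (y axis), as a mean of the 3 lines with its SE, coloured by the complex the subunit joins; filled points were called at an adjusted p under 0.05 and the dotted line is the median of all genes at -0.02. Polr1b at 1.04 lies farthest right, and the Pol III subunits spread from -0.21 to 0.73.

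Polr1b encodes the second largest subunit of Pol I, part of its active site. It measured 82.8 and 106 CPM in S38D mitotic, 72.7 and 80.5 CPM in S38A mitotic and 120.2 and 92.8 CPM in WT mitotic cells, against 52.5 and 36.8 CPM in S38D asynchronous, 48.2 and 52.1 CPM in S38A asynchronous and 39.7 and 38.8 CPM in WT asynchronous cells. The 6 mitotic libraries all lay above the 6 asynchronous ones, with WT mitotic replicate 1 highest. It averaged 92.5 ± 17.7 CPM in the mitotic libraries and 44.7 ± 7.08 CPM in the asynchronous ones (SD, n = 6 each), a log2 fold change of 1.04 (SE 0.103, adjusted p = 9.07e-07).

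Polr1a encodes the largest Pol I subunit. It measured 51.3 and 67.2 CPM in S38D mitotic, 61.3 and 65.1 CPM in S38A mitotic and 55.5 and 48.5 CPM in WT mitotic cells, against 40.6 and 26.9 CPM in S38D asynchronous, 32.0 and 35.5 CPM in S38A asynchronous and 30.1 and 36.3 CPM in WT asynchronous cells. Here too no mitotic library fell into the asynchronous range, and the widest gap between replicates was in the S38D line. The log2 fold change was 0.79 (SE 0.11, adjusted p = 2.79e-05). Polr1e, whose protein helps Pol I start transcription, rose by 0.39 (SE 0.108, adjusted p = 0.00849), with a range of 32.9 to 46.0 CPM over the mitotic and 20.3 to 40.0 CPM over the asynchronous libraries. Its ranges overlapped through S38D asynchronous replicate 1, the highest asynchronous library.

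The subunits that Pol I and III share, Polr1c and Polr1d, form the platform on which the other subunits assemble, and they differed. Polr1d measured 605 and 644 CPM in S38D mitotic, 477 and 467 CPM in S38A mitotic and 562 and 523 CPM in WT mitotic cells, against 413 and 424 CPM in S38D asynchronous, 442 and 449.9 CPM in S38A asynchronous and 392 and 382 CPM in WT asynchronous cells. The states did not overlap, but the S38A mitotic libraries came close to the S38A asynchronous ones. Polr1d rose by 0.38 log2 units (SE 0.0558, adjusted p = 4.54e-05), whereas Polr1c had a log2 fold change of 0.03 (SE 0.0764, adjusted p = 0.806).

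Among the subunits that all 3 enzymes use, Polr2f had the smallest adjusted p of the whole family. It measured 858 and 908 CPM in S38D mitotic, 694 and 619.9 CPM in S38A mitotic and 954 and 869 CPM in WT mitotic cells, against 654 and 519 CPM in S38D asynchronous, 446 and 449 CPM in S38A asynchronous and 446 and 477 CPM in WT asynchronous cells. Within each line the states were apart, but S38A mitotic replicate 2 lay below S38D asynchronous replicate 1. The log2 fold change was 0.71 (SE 0.0682, adjusted p = 6.62e-07).

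Polr2e, another small subunit of the common core, measured 137 and 148 CPM in S38D mitotic, 160.0 and 152 CPM in S38A mitotic and 158 and 132 CPM in WT mitotic cells, against 126 and 115 CPM in S38D asynchronous, 129 and 149.7 CPM in S38A asynchronous and 89.0 and 97.5 CPM in WT asynchronous cells. The WT asynchronous libraries were the lowest and S38A asynchronous replicate 2 overlapped the mitotic range. Polr2e rose by 0.35 (SE 0.0717, adjusted p = 0.00102). Polr2l rose by 0.65 (SE 0.225, adjusted p = 0.0274) at only 9 to 31 reads per library, and its adjusted p was 0.0524 to 0.113 without one of 6 libraries (WT asynchronous 1, S38A asynchronous 1, S38D asynchronous 1, WT mitotic 2, S38A mitotic 1 or S38D mitotic 1), 0.154 with DESeq2 and 0.142 with spike-in scaling. Polr2h, which spanned 70.2 to 190.2 CPM across mitotic and 30.1 to 129 CPM across asynchronous libraries, had a log2 fold change of 0.49 with a wide SE of 0.354 (adjusted p = 0.317).

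The catalytic pair of Pol II did not pass the test. Polr2a, whose repeated C-terminal domain is phosphorylated during transcription, measured 105 and 109 CPM in S38D mitotic, 158 and 163 CPM in S38A mitotic and 111 and 102 CPM in WT mitotic cells, against 133 and 98.6 CPM in S38D asynchronous, 179 and 179.7 CPM in S38A asynchronous and 79.0 and 83.3 CPM in WT asynchronous cells. It varied with the line more than with the state, S38A being highest in both. The log2 fold change was 0.04 (SE 0.0755, adjusted p = 0.712).

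Polr2b measured 76.4 and 85.7 CPM in S38D mitotic, 63.3 and 75.7 CPM in S38A mitotic and 45.0 and 76.6 CPM in WT mitotic cells, against 35.2 and 66.5 CPM in S38D asynchronous, 64.8 and 50.2 CPM in S38A asynchronous and 63.7 and 70.0 CPM in WT asynchronous cells. The states overlapped, and the lowest libraries were S38D asynchronous replicate 1 and WT mitotic replicate 1 (log2 fold change 0.27, SE 0.194, adjusted p = 0.307). The smaller Pol II subunits moved by less than Polr1a, Polr1b or Polr2f. Polr2c rose by 0.24 (adjusted p = 0.00664), Polr2j, its partner in the assembly platform, by 0.26 (adjusted p = 0.00564), Polr2i, which acts in start site choice and proofreading, by 0.30 (adjusted p = 0.00437), and Polr2m, which codes for the Gdown1 protein bound to a subset of Pol II, by 0.37 (adjusted p = 0.000244).

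The stalk of Pol II, made of the Polr2d and Polr2g proteins, did not move as a pair. Polr2g measured 420.4 and 438 CPM in S38D mitotic, 413 and 405 CPM in S38A mitotic and 371 and 378 CPM in WT mitotic cells, against 463 and 544 CPM in S38D asynchronous, 561 and 533 CPM in S38A asynchronous and 374 and 387 CPM in WT asynchronous cells. The mutant asynchronous libraries were the 4 highest, and the WT asynchronous ones lay within the mitotic range. Polr2g fell by 0.22 log2 units (SE 0.0599, adjusted p = 0.00667), while Polr2d had a log2 fold change of 0.58 (SE 0.255, adjusted p = 0.103).

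Pol III subunits differed among themselves. Polr3d and Polr3e code for the partners of one subcomplex that acts in start and stop of transcription, and both rose. Polr3e measured 74.6 and 67.2 CPM in S38D mitotic, 94.0 and 85.6 CPM in S38A mitotic and 83.3 and 76.1 CPM in WT mitotic cells, against 47.8 and 45.8 CPM in S38D asynchronous, 48.8 and 60.9 CPM in S38A asynchronous and 41.1 and 45.9 CPM in WT asynchronous cells. The states did not overlap, and S38A was highest in each. The log2 fold change was 0.73 (SE 0.081, adjusted p = 2.84e-06), and Polr3d rose by 0.57 (SE 0.0851, adjusted p = 5.67e-05), where mitotic libraries spanned 35.1 to 46.3 CPM and asynchronous ones 24.1 to 29.8 CPM.

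The catalytic pair of Pol III did not pass the test. Polr3a measured 5.36 and 9.97 CPM in S38D mitotic, 10.3 and 7.45 CPM in S38A mitotic and 6.80 and 8.34 CPM in WT mitotic cells, against 8.75 and 6.01 CPM in S38D asynchronous, 8.19 and 7.07 CPM in S38A asynchronous and 3.52 and 7.09 CPM in WT asynchronous cells. Replicates of Polr3a differed as much as the states did, at 18 to 57 reads per library (log2 fold change 0.28, SE 0.205, adjusted p = 0.294). Polr3b measured 21.8 and 24.6 CPM in S38D mitotic, 20.97 and 24.8 CPM in S38A mitotic and 29.8 and 23.7 CPM in WT mitotic cells, against 28.2 and 23.5 CPM in S38D asynchronous, 21.1 and 26.4 CPM in S38A asynchronous and 23.1 and 28.3 CPM in WT asynchronous cells. Its states covered the same range (log2 fold change -0.05, SE 0.111, adjusted p = 0.773).

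The subcomplex that brings Pol III to its promoters contains the Polr3c and Polr3f proteins and one of the paralogs Polr3g or Polr3gl, of which Polr3g is known from stem and tumour cells and Polr3gl from most tissues. Polr3g measured 11.1 and 12.7 CPM in S38D mitotic, 11.03 and 11.3 CPM in S38A mitotic and 8.12 and 10.5 CPM in WT mitotic cells, against 12.7 and 14.3 CPM in S38D asynchronous, 11.5 and 11.04 CPM in S38A asynchronous and 14.3 and 9.35 CPM in WT asynchronous cells. Polr3gl measured 33.6 and 22.5 CPM in S38D mitotic, 31.8 and 23.8 CPM in S38A mitotic and 33.6 and 27.6 CPM in WT mitotic cells, against 36.1 and 33.6 CPM in S38D asynchronous, 33.4 and 28.5 CPM in S38A asynchronous and 34.4 and 30.6 CPM in WT asynchronous cells. Polr3gl was above Polr3g in every library, and the states of both overlapped. Both had a log2 fold change of -0.19, with an SE of 0.135 for Polr3g (adjusted p = 0.285) and 0.117 for Polr3gl (adjusted p = 0.213).

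Polr3c fell by 0.21 (SE 0.0785, adjusted p = 0.0404), with mitotic libraries between 35.8 and 45.0 CPM and asynchronous ones between 38.3 and 59.1 CPM. Its adjusted p was 0.0588 to 0.127 without one of 7 libraries (WT asynchronous 2, S38A asynchronous 1, either WT mitotic, either S38A mitotic, or S38D mitotic 2), 0.179 with DESeq2 and 0.0786 without the filter on low counts. Polr3k, which acts in RNA cleavage, and Polr3f were not called (log2 fold changes of -0.10 and -0.21, SE 0.191 and 0.284, adjusted p = 0.709 and 0.603).

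All 6 mitotic libraries lay above all 6 asynchronous libraries for 5 members (Polr1a, Polr1b, Polr1d, Polr3d and Polr3e), against 5.79% of all genes, and below them for 0 members, against 4.84%. Summed over members, Pol I subunits took 169 to 219 CPM in the mitotic libraries and 90.1 to 133 CPM in the asynchronous ones, and the subunits of all 3 enzymes 884 to 1251 and 663 to 815 CPM. The Pol II sum overlapped, at 1853 to 1986 CPM in the mitotic libraries and 1499 to 1923 CPM in the asynchronous ones. So did that of the pair shared by Pol I and III, at 719 to 872 and 601 to 738 CPM. The Pol III sum is not given here, so whether it separated the states cannot be read from these values.

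**Figure D2:**
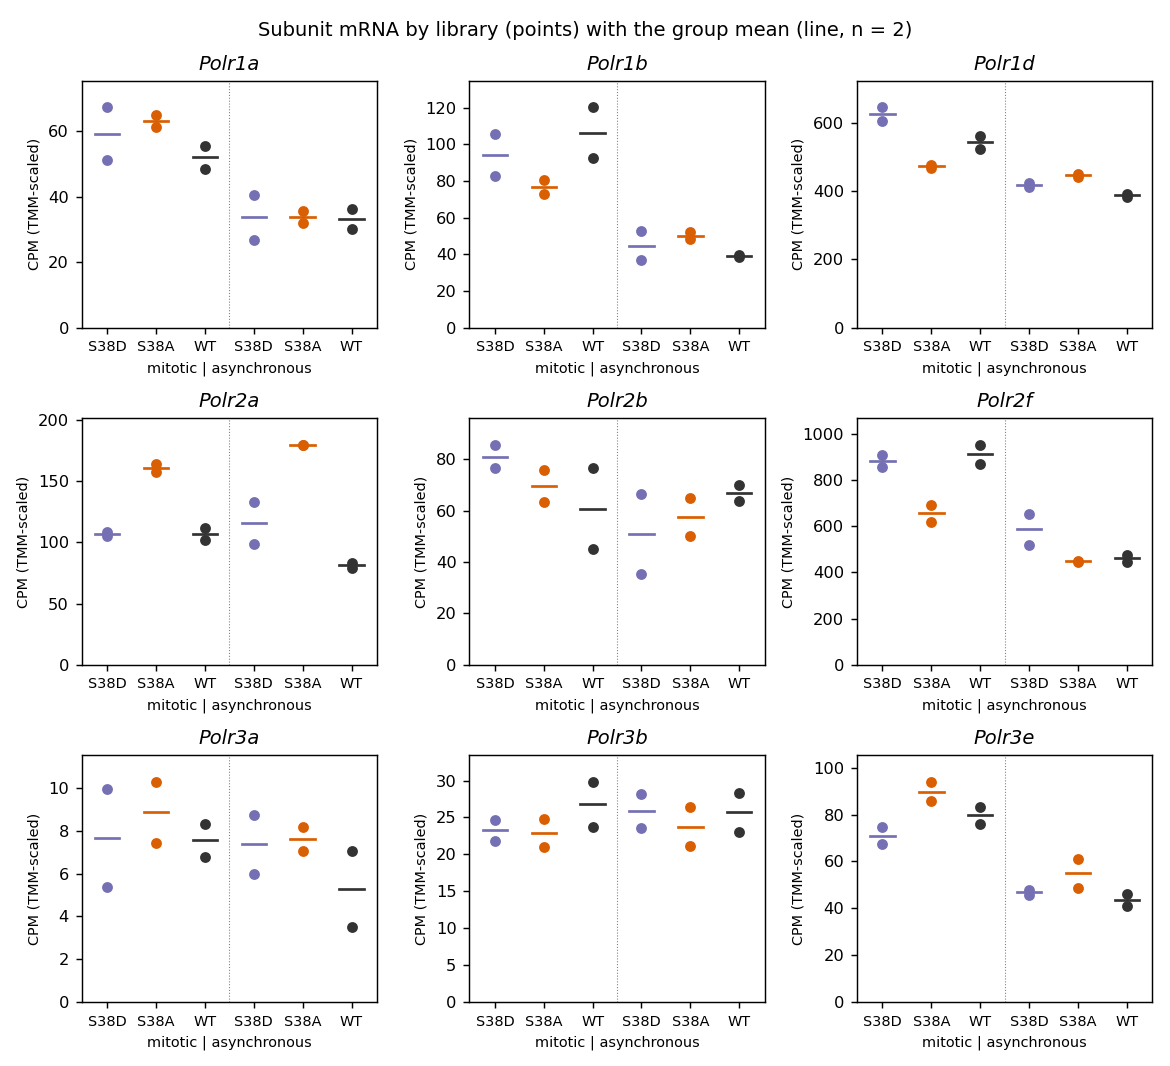
CPM (y axis) of 9 subunit genes in the 12 libraries, by line within mitotic cells (left) and asynchronous cells (right); points are libraries and lines are group means of 2. Polr1a, Polr1b, Polr1d and Polr3e show no overlap of the states, whereas Polr2a follows the line, with S38A at 158 to 163 CPM in mitotic and 179 to 179.7 CPM in asynchronous cells.

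Within the lines, 6 members rose in mitotic cells of all 3: Polr1a, Polr1b, Polr2f, Polr2m, Polr3d and Polr3e, against 3.74% of all genes higher in each of the 3. The S38D line called 7 members, all higher, against 26.4% of all genes, the S38A line 7 (6 higher, 1 lower) against 14.8%, and the WT line 15 (14 higher, 1 lower) against 26.0%. By direction, 11.6% of all genes were higher and 14.8% lower in S38D, 6.72% and 8.06% in S38A, and 13.4% and 12.7% in WT. With spike-in scaling the WT line had 2 members higher (Polr1b and Polr2f) and 4 lower, beside 32.9% of all genes called and a median of all genes at -0.46. The S38A and S38D lines kept 5 higher and 0 lower each, beside 8.9% and 21.2% of all genes called and medians of 0.03 and -0.12.

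Polr1b rose by 1.08 in S38D (SE 0.177, adjusted p = 0.000363), 0.61 in S38A (SE 0.176, adjusted p = 0.0278) and 1.44 in WT (SE 0.182, adjusted p = 6.73e-05). Polr1a rose by 0.81 in S38D, 0.90 in S38A and 0.65 in WT (adjusted p = 0.00471, 0.00392 and 0.0208), and its calls in the mutant lines were lost without S38D mitotic replicate 2 (0.0974 in S38D) and without S38A asynchronous replicate 1 or S38A mitotic replicate 2 (0.0786 and 0.052 in S38A). In the S38A line the call of Polr1b was lost without either library of S38A asynchronous or mitotic cells or WT asynchronous replicate 2 (adjusted p = 0.0527 to 0.207). The WT call of Polr1a was lost without WT asynchronous or WT mitotic replicate 1 (0.2 and 0.124). Polr2f rose by 0.59 in S38D, 0.55 in S38A and 0.98 in WT, and Polr3e by 0.60 in S38D, 0.71 in S38A and 0.88 in WT. The Polr3e calls were lost without S38D mitotic replicate 1 (0.0596 in S38D) or S38A asynchronous replicate 1 (0.0803 in S38A), and the S38A call of Polr2f without either S38A asynchronous library or S38A mitotic replicate 1 (0.0571 to 0.0845). Polr3d in S38A needed all 4 S38A libraries (0.0554 to 0.142 without one) and in WT was lost without any WT library or either S38D mitotic one (0.0584 to 0.202). The WT call of Polr3d was also lost in 5 of 7 other settings, with DESeq2 (0.192), spike-in scaling (0.961), no filter (0.0821), only the groups compared (0.0744) and both divergent libraries left out (0.0762). DESeq2 did not call Polr1b (0.0563) or Polr3d (0.0851) in S38A, and fits of only the groups compared did not call Polr1a (0.0658), Polr2f (0.0571) or Polr3e (0.0592) in S38D. Polr2m lost its S38A call without any library except those of S38D asynchronous cells (0.0544 to 0.411). Its S38D call was kept only without S38D asynchronous replicate 1 or either S38A mitotic library (otherwise 0.0537 to 0.185). DESeq2, spike-in scaling and no filter each ended its calls in S38D (0.0725 to 0.302) and S38A (0.0811 to 0.111), and its WT call was lost without either WT asynchronous library or WT mitotic replicate 1 (0.0574 to 0.085). Polr1d rose in S38D (0.58, adjusted p = 0.000401) and WT (0.49, adjusted p = 0.00189) and had a log2 fold change of 0.08 in S38A. Polr2g fell in S38A by 0.42 (SE 0.104, adjusted p = 0.012), a call lost without S38A asynchronous replicate 1 or either S38A mitotic library (0.0604 to 0.0857), with log2 fold changes of -0.23 in S38D and -0.02 in WT.

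Other calls in WT cells were Polr2a, Polr2c, Polr2e, Polr2i, Polr2j and Polr2l, higher by 0.39 to 1.24, and all of these but Polr2e lost the call without WT asynchronous replicate 1 (adjusted p = 0.0572 to 0.238). Polr2c also lost it without WT mitotic replicate 1, Polr2l without any WT library, Polr2i without any WT library or either S38D mitotic one, and Polr2a without any WT, S38D mitotic or S38A asynchronous library. With DESeq2 the WT calls of Polr2a, Polr2i and Polr2l were lost (0.0864 to 0.19). Polr3f was lower in WT mitotic cells, by a log2 fold change of -1.86 (SE 0.502, adjusted p = 0.0303). Polr3f measured 7.93 and 10.3 CPM in WT mitotic against 37.9 and 27.8 CPM in WT asynchronous cells, and 7.16 to 22.1 CPM in the mutant libraries. The WT asynchronous pair thus stood above all 10 other libraries, and it is also the pair at one end of the axis of replicate variation. The WT call of Polr3f was lost without any 1 of the 4 WT libraries or either S38D mitotic library (adjusted p = 0.0533 to 0.179). These fits also moved the share of all genes called. The WT count was 6 without WT asynchronous replicate 1 (10.2% of all genes called), 9 when replicate 2 of that group was left out (14.7%) and 7 when WT mitotic replicate 1 was (12.0%). For S38A the count was 0 or 3 without S38A asynchronous replicate 1 or 2 (5.79% and 6.66%), 2 without S38A mitotic replicate 1 or 2 (6.65% and 5.99%) and 11 without either S38D asynchronous library (22.7% each). The S38D count was 12 without S38D asynchronous replicate 2 (34.8%).

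The test of the difference in mitotic change between lines called 0 members for S38D minus S38A, S38D minus WT and S38A minus WT, against 0.0382%, 0.401% and 0.993% of all genes. At an unadjusted p under 0.05 there were 1, 6 and 9 of 27 members, against 8.13%, 19.1% and 19.0% of all genes, and DESeq2 called 0, 1 and 1, against 0.0764%, 0.592% and 1.2%. The Polr1b change differed by -0.83 (SE 0.252, adjusted p = 0.112) between S38A and WT, and the Polr2a change by -0.51 (SE 0.187) and -0.55 (SE 0.185) for S38D and S38A against WT (adjusted p = 0.174 and 0.138). Without replicate 1 or 2 of S38D asynchronous cells the S38A minus WT count was 9, where 11.2% and 11.9% of all genes were called. Without replicate 2 of that group the S38D minus WT count was 12, with 25.5% of all genes called, and the S38D minus S38A count 1, with 2.99%.

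Between lines, the member that stood out was Polr2a (chr11:69733997-69758637, minus strand, GRCm38), higher in S38A than in WT in both states. In asynchronous cells the log2 fold change of S38A over WT was 1.15 (SE 0.133, adjusted p = 2.3e-05), and the libraries were at 179 and 179.7 CPM in S38A and at 79.0 and 83.3 CPM in WT. In mitotic cells it was 0.59 (SE 0.13, adjusted p = 0.00501), and 0.0502 or 0.0576 without WT mitotic replicate 2 or S38A mitotic replicate 2. S38D lay below S38A, by a log2 fold change of -0.59 in mitotic (SE 0.13, adjusted p = 0.00545) and -0.63 in asynchronous cells (SE 0.129, adjusted p = 0.00662). These calls were lost without S38A mitotic replicate 2 or S38D mitotic replicate 1 (0.062 and 0.0555) and without either S38A asynchronous library (0.0608 and 0.0643). S38D exceeded WT in asynchronous cells by 0.51 (SE 0.133, adjusted p = 0.0248), a call lost without either WT asynchronous library or S38D asynchronous replicate 1 (0.0954 to 0.213), in fits of only the groups compared (0.289), with spike-in scaling (0.596) and with both divergent libraries left out (0.127). The mitotic difference was 0.00 (SE 0.131). The asynchronous difference of S38D from S38A was not called when only these groups were fitted (0.181). The asynchronous S38A excess over WT kept its call without each library in turn, at an adjusted p of at most 0.00176. It also kept its call with spike-in scaling, where the log2 fold change was 0.69 instead of 1.15.

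In asynchronous cells S38A differed from WT in 6 members (5 higher, 1 lower), against 21.2% of all genes, and S38D from WT in 4, all higher, against 8.99%. With spike-in scaling, which put the median of all genes at -0.47 and -0.38, the counts were 1 higher and 4 lower for S38A and 0 higher and 1 lower for S38D. That scaling called 31.7% of all genes for S38A and 13% for S38D. Besides Polr2a, both mutant lines had higher Polr2g, by 0.40 in S38D (SE 0.104, adjusted p = 0.0238) and 0.52 in S38A (SE 0.104, adjusted p = 0.00212). The libraries were at 463 and 544 CPM in S38D, 561 and 533 CPM in S38A and 374 and 387 CPM in WT, without overlap between mutant and WT cells. With spike-in scaling the Polr2g differences were 0.04 and 0.06 and were not called, and the S38D call was lost without either WT asynchronous library (0.206 and 0.093) or with only the groups compared (0.3).

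In asynchronous cells Polr2e was higher in S38A by 0.58 (SE 0.126, adjusted p = 0.00401) and Polr3c by 0.47 (adjusted p = 0.0213), and Polr2c was higher in S38D by 0.39 (adjusted p = 0.0411). With spike-in scaling these differences became 0.12, 0.008 and -0.01, and none was called (adjusted p = 0.559, 0.973 and 0.958). Without WT asynchronous replicate 1 none of these 3 kept its call (0.0694, 0.177 and 0.266), Polr3c also lost it without S38A asynchronous replicate 1 (0.125), and Polr2c without WT asynchronous replicate 2, either S38A asynchronous library, S38D asynchronous replicate 1 or S38D mitotic replicate 2 (0.0542 to 0.172). Polr3c lost its call with DESeq2 too (0.0989), and Polr2c with only the groups compared (0.305) and with both divergent libraries left out (0.145). Polr3f was lower in S38A by a log2 fold change of -1.62 (SE 0.482, adjusted p = 0.0495), a call lost without any library of WT asynchronous, S38A asynchronous, WT mitotic or S38D mitotic cells (0.0742 to 0.236), with DESeq2 size factors (0.0508) or with the replicate block (0.0513). S38D and S38A asynchronous cells differed in 1 member, Polr2a, against 7.22%.

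The count for S38D against WT in asynchronous cells was 0 without WT asynchronous replicate 1 or 2, 1 without S38D asynchronous replicate 1 and 13 without replicate 2, and all genes moved with it, at 2.18%, 3.16%, 5.19% and 29.8% called. The S38A count was 2 without WT asynchronous replicate 1 (8.09% of all genes) and 12 without S38D asynchronous replicate 1 or 2 (31.0% and 31.3%). For S38D against S38A the count was 0 without S38A asynchronous replicate 1 or 2 (2.01% and 2.26%) and 3 without S38D asynchronous replicate 1 or 2 (12.5% and 12.8%). Both mutant comparisons with WT share the WT libraries.

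In mitotic cells 0 members were called between S38D and WT, against 4.56% of all genes, with 2 at an unadjusted p under 0.05, against 18.2%, and 0 with DESeq2, against 2.79%. S38A differed from WT in Polr2a and Polr2f, 2 members against 17.0%, and Polr2f was lower in S38A by a log2 fold change of -0.47 (SE 0.117, adjusted p = 0.011). S38D differed from S38A in 3 members against 17.7%: Polr2a, Polr2f (0.43, SE 0.117, adjusted p = 0.0198) and Polr1d (0.40, SE 0.0964, adjusted p = 0.00891). The Polr2f call in S38A against WT was lost without WT mitotic replicate 1 or S38A mitotic replicate 2 (adjusted p = 0.0915 and 0.133). Against S38D, Polr2f lost its call without any S38A or S38D mitotic library (0.0508 to 0.167), and Polr1d without either S38A mitotic library or S38D mitotic replicate 2 (0.0534 to 0.11), and with spike-in scaling neither was called (0.087 and 0.117). The S38A against WT count was 0 without S38A mitotic replicate 2 (7.37% of all genes called), 1 without WT mitotic replicate 1 or 2 (8.32% and 11.2%) and 5 without either S38D asynchronous library (24.0% each). The S38D against WT count was 1 and 2 without S38D asynchronous replicate 1 and 2 (9.93% and 10.1%). The S38D against S38A count was 5 without S38D asynchronous replicate 1 (25.2%), 0 without S38A mitotic replicate 2 (7.62%), 1 without S38A mitotic replicate 1 (7.60%), and 1 without S38D mitotic replicate 1 or 2 (8.96% and 6.54%).

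**Figure D3:**
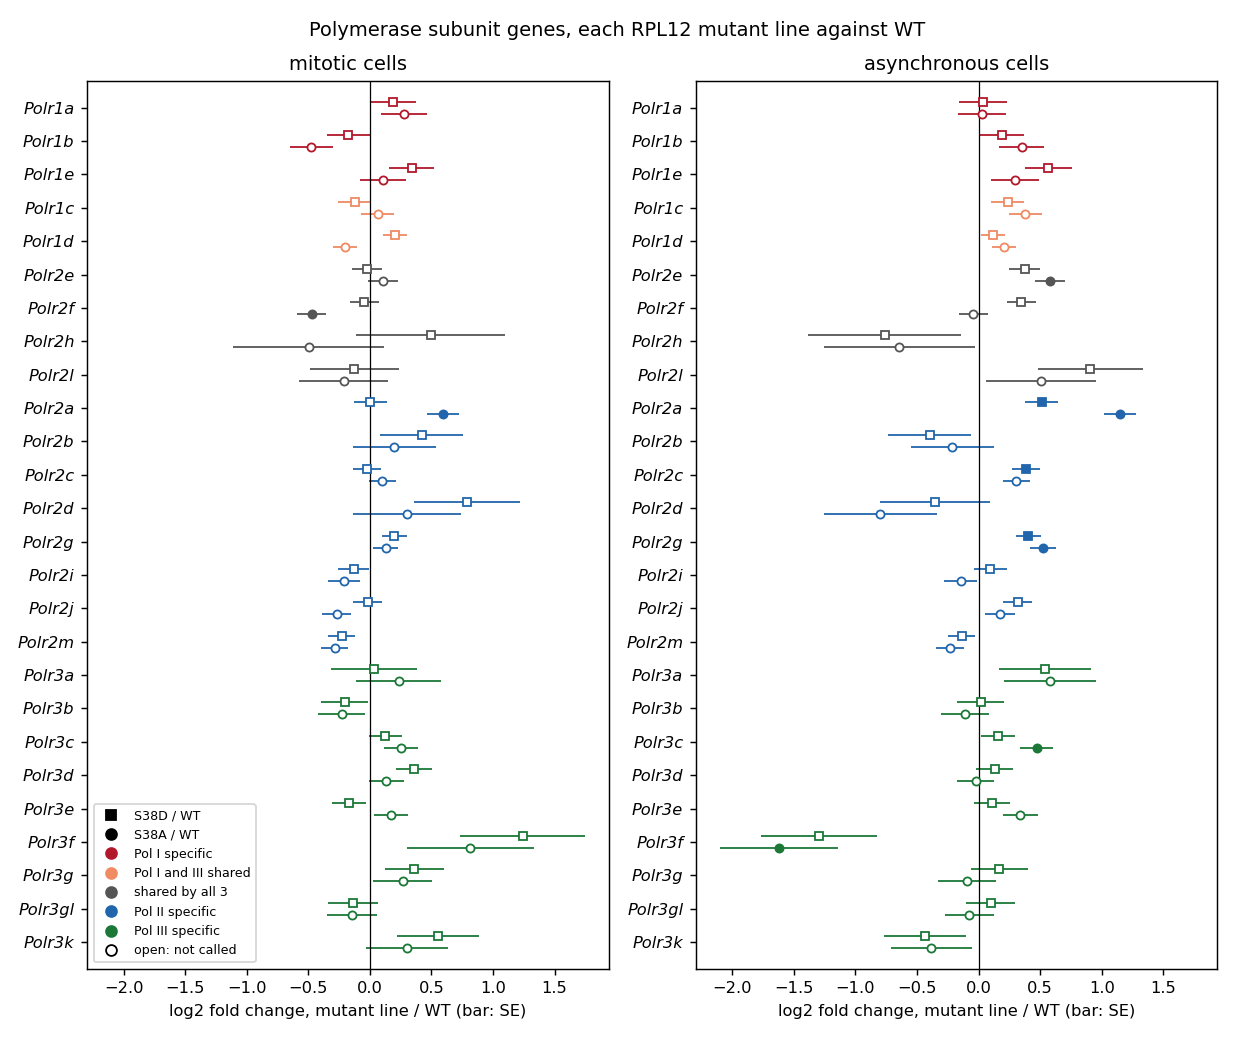
Log2 fold change (x axis) of the S38D line (squares) and the S38A line (circles) over WT for the subunit genes named here, in mitotic cells (left) and asynchronous cells (right), with SE; filled symbols were called. Polr2a in S38A is filled in both panels, at 0.59 in mitotic and 1.15 in asynchronous cells.

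A set of 5 members was low in the library that stood apart in each of the divergent groups. Between replicate 1 and replicate 2 of S38D asynchronous cells, log2 CPM differed by -1.93 for Polr2h, -1.43 for Polr3f, -1.40 for Polr2d and -0.91 for Polr2b and Polr3k, against a median of 0.09 over 6900 genes. In WT mitotic cells the same members differed by -0.90, -0.36, -0.73, -0.76 and -0.83, and there Polr2l, at -0.40, lay below Polr3f. They were also lower in replicate 1 than in replicate 2 of S38A mitotic cells, by -0.61, -0.94, -0.35, -0.26 and -0.29. The other 22 tested members lay between -0.45 (Polr2l) and 0.59 (Polr1a) in S38D asynchronous cells. These 5, chosen after their values were seen, belong to 3 classes, and their GC content over the last 300 nt was 29.7% to 46.3%, against 32.7% to 61.3% for the other 22, so the ranges overlapped. Among those 22, Polr3g, at 32.7% GC, differed by -0.16 in S38D asynchronous cells, and Polr1a, at 39.3%, by 0.59. Over all genes, the 1762 genes with the lowest GC differed by a median of -0.18 and the 1788 with the highest by 0.28 in S38D asynchronous cells, and the part of GC in the 5 members' values was not tested. Of these 5, 0 were called over the mean of the lines, and Polr3f was called in WT mitotic against asynchronous and in S38A against WT asynchronous cells. With both divergent libraries left out, chosen after seeing the data, 19 of the 28 members then tested and 46.7% of all genes were called over the mean of the lines, against 16 of 27 members and 42.1% with all libraries.

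**Figure D4:**
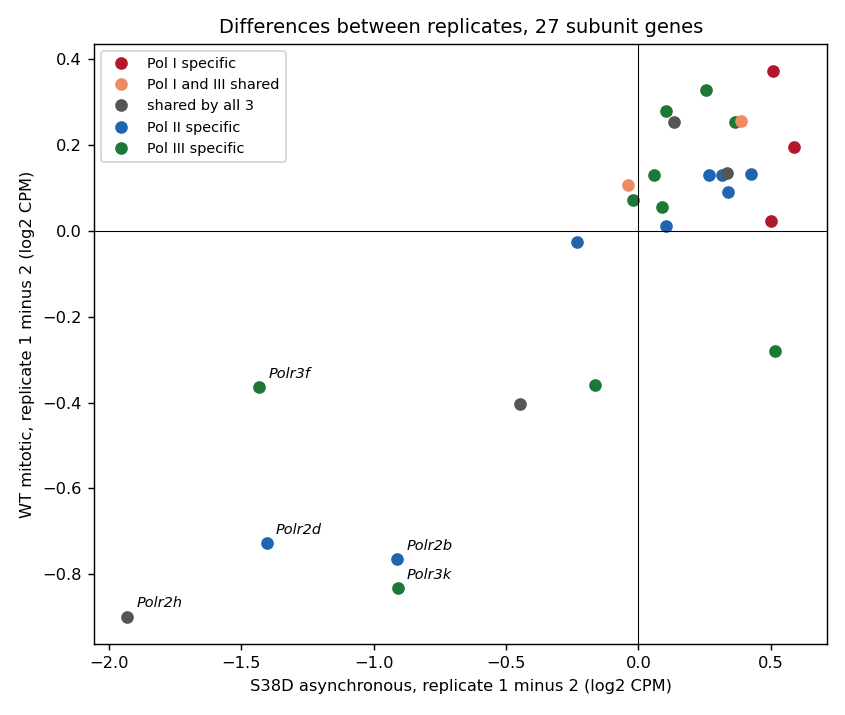
Difference in log2 CPM between replicate 1 and replicate 2 of S38D asynchronous cells (x axis) and of WT mitotic cells (y axis) for the 27 tested subunit genes, coloured by complex. Polr2h, Polr3f, Polr2d, Polr2b and Polr3k lie lowest on the x axis, from -1.93 to -0.91.

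Genes of factors that work with the polymerases were read beside the subunits, against the 20.5% higher and 21.6% lower of all genes in mitotic cells. Of 8 Pol I factors 5 were higher in mitotic cells and 0 lower, with a median log2 fold change of 0.42, among them Taf1d (0.87, adjusted p = 3.19e-06), a part of the promoter selectivity factor, and Rrn3 (0.45, adjusted p = 5.48e-05), which bridges Pol I to its promoter. Of 4 subunits listed under other symbols, Cd3eap, a Pol I subunit, rose by 0.53 (adjusted p = 0.000325). Znrd1 and Twistnb, which belong to Pol I too, were not called, and neither was Crcp of Pol III. The rise was thus not called for every Pol I subunit. Of 17 Pol III factors 4 were higher and 1 lower (median 0.06), including Gtf3c4 of transcription factor IIIC (0.60) and Snapc4 of the small nuclear RNA activator (0.77). Of 18 general factors of Pol II 2 were higher and 3 lower (median 0.10), with Gtf2f1, a subunit of transcription factor IIF, lower by a log2 fold change of -0.73 (adjusted p = 1.24e-05) and Gtf2h5 higher (0.41). Of 23 elongation factors 2 were higher and 9 lower (median -0.10), with the partners of the negative elongation factor NELF apart, Nelfa at 0.38 and Nelfe at -0.49.

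Of 14 assembly factors 3 were higher and 0 lower (median 0.01). The shares higher among the Pol III and assembly factors were thus near that of all genes. The called assembly factors include Gpn1, a GTPase for nuclear import of Pol II (0.37), and the prefoldin subunit Pfdn2 (0.38). Of 12 tested kinases, phosphatases and partners of the Polr2a C-terminal domain 5 were higher and 1 lower, with Rprd1a at 0.79 and Ctdsp2 at -0.63. Between lines, elongation factors were called higher in S38A than in WT in 7 of 23 in mitotic cells (1 lower, median 0.37) and 8 of 23 in asynchronous cells (1 lower, median 0.32). Of all genes, 8.31% were higher and 8.72% lower in the mitotic and 11.7% and 9.54% in the asynchronous comparison. Spike-in scaling put the median of all genes at 0.03 in the mitotic and -0.47 in the asynchronous comparison of S38A with WT. Values of the related factors under that scaling are not given here. One of these elongation factors is Rtf1 of the PAF complex (0.69 in mitotic cells, adjusted p = 0.000605). From the list of kinases and phosphatases, Ccnk, a cyclin of kinases of the C-terminal domain, was higher in S38A (0.91 in asynchronous cells, adjusted p = 9.99e-05). In mitotic cells S38A also had more Gtf2f1 (1.18, adjusted p = 0.000158), Twistnb, a Pol I subunit (0.79, adjusted p = 0.00404), and Ssb, the La protein that binds new Pol III transcripts (0.94, adjusted p = 0.000263). In asynchronous S38A cells Ubtf, the upstream binding factor of Pol I, was higher (0.36, adjusted p = 0.0304) and Wdr92, an assembly factor, lower (-2.26, SE 0.519, adjusted p = 0.0106).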

How the data were processed

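RNA was measured by 3′ mRNA sequencing (QuantSeq 3′ forward kit) of 1 µg of total RNA with ERCC spike-ins per library, per the labels' protocols. The deposited files hold raw read counts per gene, 1 file per library, made by the authors without normalization. The submitters' processing notes list STAR 2.5.3a, cutadapt 1.12, bcl2fastq 2.16.0.10 and the mm10 build. The sources used here do not give the counting program, its strand setting or its use of reads with several matches. Gene identifiers were matched to GENCODE M21, 47648 of 51826 (91.94%) with the same version, and 51633 in any version.

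Genes were filtered with filterByExpr at a minimum count of 10, which left 10477. The model, in edgeR 4.0.16 under R 4.3.3, used TMM scaling and 1 mean per group, leaving 6 residual degrees of freedom, and its common coefficient of biological variation was 0.143. P-values of the robust quasi-likelihood F tests received Benjamini-Hochberg adjustment across 10477 genes in each of 13 comparisons, and an adjusted p under 0.05 was a call. The SE of a log2 fold change was derived from its F statistic. The pipeline was tested on simulated data.

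One member is not reported here, although counts and medians over the members include it. The members, the lists of related factors and the tests were chosen with earlier results of these data known. Values in every library are given for the catalytic pair of each polymerase, for Polr3g and Polr3gl, and for the 3 called members with the smallest adjusted p in each comparison. Of each list of related factors, the 2 called genes with the smallest adjusted p in the mean mitotic comparison and the 1 with the smallest in a mutant comparison with WT were named. Replicate numbers did not pair the samples: of 15 correlations of replicate differences between groups, 3 were above 0.1 and 3 below -0.1. The positive ones, 0.786, 0.591 and 0.549, joined S38D asynchronous, WT mitotic and S38A mitotic cells, and each of these groups was at -0.362 to -0.399 against S38A asynchronous cells. Alternatives were DESeq2 1.42.0, its size factors in edgeR, spike-in scaling, no filter, only the groups compared, fits without each library in turn, and a block for the replicate number.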

Additional observations from a re-analysis of the deposited data

How the results depend on the processing

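Counts of members called moved by more than 1.5 times in these cases. Shares of all genes called in the same fit follow in brackets. Spike-in scaling gave 8 members for the mean mitotic comparison (41.8%) and 6 in WT (32.9%). It gave 1 for S38D against S38A in mitotic cells (11.6%) and 1 for S38D against WT in asynchronous ones (13%). DESeq2 gave 4 for the mitotic change in S38A (8.99%) and 1 each for the S38A minus WT (1.2%) and S38D minus WT (0.592%) changes. Without a filter, over 19712 genes, there were 9 and 2 members for S38D against WT and against S38A in asynchronous cells (8.04% and 5.14%). That fit gave 1 for S38D against WT in mitotic cells (3.64%). For the S38A minus WT and S38D minus WT changes it gave 3 and 2 (3.12% and 3.68%). Fits of only the groups compared gave 3 for S38D mitotic against asynchronous (11.8%) and 9 for the S38A minus WT change (9.38%). In asynchronous cells they gave 14 for S38A against WT (39.4%), 0 for S38D against WT (0.844%) and 0 for S38D against S38A (1.07%). In mitotic cells they gave 1 for S38D against WT (4.28%) and 8 for S38D against S38A (31.5%). With both divergent libraries left out there were 11 in S38A and 11 in S38D for mitotic against asynchronous. In asynchronous cells the same fit gave 14 for S38A against WT, 1 for S38D against WT and 4 for S38D against S38A, in mitotic cells 8 for S38D against S38A, and 7 for the S38A minus WT and 2 for the S38D minus S38A change. Shares of all genes for that fit are given only for the mean mitotic comparison, above. The cause of these moves was not tested. Medians of the classes moved to 0.49 (Pol I), 0.44 (Pol I and III shared) and 0.26 (Pol III, reversed) with shared subunits counted in each class, and to 0.027 (Pol I and III shared), 0.082 (Pol II) and -0.26 (Pol III) with spike-in scaling.

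With spike-in scaling 5 named values changed sign: in WT mitotic against asynchronous cells Polr2i (-0.047), Polr2c (-0.000626), Polr2m (-0.020) and Polr2a (-0.052), and in asynchronous cells Polr2c for S38D against WT (-0.0114).

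With 1 library left out at a time, members called ranged from 14 to 18 for the mean mitotic comparison, 6 to 17 in WT, 0 to 11 in S38A and 5 to 12 in S38D. In asynchronous cells they ranged from 2 to 12 for S38A against WT, 0 to 13 for S38D against WT and 0 to 3 for S38D against S38A, and in mitotic cells from 0 to 5, 0 to 2 and 0 to 5. The 3 differences in mitotic change ranged from 0 to 9 (S38A minus WT), 0 to 12 (S38D minus WT) and 0 to 1 (S38D minus S38A). Class medians ranged from 0.70 to 0.89 (Pol I), 0.17 to 0.23 (Pol I and III shared), 0.23 to 0.29 (Pol II), 0.36 to 0.71 (shared by all 3) and -0.10 to 0.083 (Pol III, reversed to 0.083 without S38D asynchronous replicate 2). A fit with 1 library left out assumes that the lone library of its group varies like the other groups. The share of all genes called also moved in these fits, as the shares given above show. The ranges of members called therefore cannot be read as a property of the members alone.

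The replicate block left all counts as reported, with 16 for the mean mitotic comparison and 15 in WT, and with Pol I and Pol III medians of 0.79 and -0.08, although for S38A against WT in asynchronous cells its 6 calls were all higher, Polr3f no longer among them. Each called value of a named member was checked once per other setting. Of these checks, 55 lost the call with the sign kept, 5 lost the call and changed sign, and 324 kept side and sign. Calls were also lost with 1 library left out, as given above. Depth limits the members with few reads: Polr2k (1 to 7 reads per library), Polr2l (9 to 31) and Polr3a (18 to 57).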
